A study of Homo sapiens with 6 samples.

Results

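The SOX genes are described here as they read in 2 sublines of the prostate carcinoma line PC-3, an established human line derived from a bone metastasis. PC-3/Mc (3 arrays) was compared with PC-3/S (3 arrays), both harvested before confluence, without any treatment named in the labels, and hybridised to one-colour Affymetrix oligonucleotide arrays. Members were the probe sets that the platform annotation assigns to SOX4, SOX5, SOX6, SOX7, SOX8, SOX9, SOX11, SOX12, SOX13 or SOX15 alone, which gave 33 probe sets for 10 genes out of 54675 probe sets in the table. Each line stands for itself: how the sublines were derived, and whether the biological replicates were separate cultures, is not given in the labels, so each p-value below reflects only how much these 6 arrays vary.

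SOX proteins bind DNA through a high-mobility-group (HMG) box related to that of the testis-determining factor, bend it, and usually act together with a partner transcription factor. They fall into lettered groups by the sequence of that box: SOX4, SOX11 and SOX12 form SOXC, SOX5, SOX6 and SOX13 form SOXD, SOX8 and SOX9 belong to SOXE, SOX7 to SOXF and SOX15 to SOXG. In the prostate, SOX9 is known as a factor of the budding epithelium and of basal cells in the mouse, and SOX4 is known to be abundant in many human prostate carcinomas.

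Upstream sequences are given for 3 of the genes whose brightest probe set read over the background floor described below, namely SOX4, SOX12 and SOX13. In that order, these genes were lower in PC-3/Mc, higher at the brightest probe set, and without a call. The sequences are shown to place these differing outcomes beside the sequence at which each gene starts. Each line holds the 250 bases before the start site (RefSeq, GRCh38.p14, plus strand, 5′ to 3′), from chr6:21593501-21593750 for SOX4, chr20:325302-325551 for SOX12 and chr1:204072865-204073114 for SOX13, with any match to 4 motifs in capitals.
SOX4: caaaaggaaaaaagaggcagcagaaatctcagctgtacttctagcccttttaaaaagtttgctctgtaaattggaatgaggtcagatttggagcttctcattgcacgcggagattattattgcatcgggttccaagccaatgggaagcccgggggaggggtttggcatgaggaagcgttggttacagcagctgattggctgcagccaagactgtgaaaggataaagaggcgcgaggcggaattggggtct
SOX12: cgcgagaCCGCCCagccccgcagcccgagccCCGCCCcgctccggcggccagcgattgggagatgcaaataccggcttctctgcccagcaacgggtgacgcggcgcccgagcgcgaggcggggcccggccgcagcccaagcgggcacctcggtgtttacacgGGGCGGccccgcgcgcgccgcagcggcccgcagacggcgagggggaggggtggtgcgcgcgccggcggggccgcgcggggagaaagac
SOX13: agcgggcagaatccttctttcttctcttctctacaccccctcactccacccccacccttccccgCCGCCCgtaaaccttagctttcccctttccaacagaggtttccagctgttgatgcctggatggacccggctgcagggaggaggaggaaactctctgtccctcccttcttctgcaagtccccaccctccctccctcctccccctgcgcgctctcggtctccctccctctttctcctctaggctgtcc

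The motifs searched on both strands were the SOX core words AACAAT and ACAAAG, the GC box GGGCGG and the TATA word TATAAA; the SOX words share letters, but no match to either was found in these 3 windows. Among 35116 upstream windows of the same length, 8.98% held AACAAT, 13.7% ACAAAG, 42.6% GGGCGG and 10.7% TATAAA. SOX12 held 3 GC boxes, 1 reading with the gene and 2 against it, SOX13 held 1 against it, and SOX4 held none of the words. The windows also differed in base composition, with 48.8% G and C and 8 CpG pairs for SOX4, 79.2% and 42 pairs for SOX12, and 60.8% and 8 pairs for SOX13, against a median of 58.0% G and C over all windows. A match is a description of the letters, and a window without one says nothing about binding.

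All values below are deposited log2 values. Each difference is the PC-3/Mc mean less the PC-3/S mean with its standard error (SE), n = 3 arrays per line, and adjusted p-values are from limma with Benjamini-Hochberg adjustment over every probe set that is not a control. A probe set is called at an adjusted p under 0.05. Detection calls were not used here. CTNNA1, known to be homozygously lost from PC-3 cells, read between 3.51 and 5.18 on its 5 probe sets, and its highest reading serves as a rough floor for background. Array medians lay between 4.98 and 5.09, correlations were 0.995 to 0.997 between arrays of a line and 0.949 to 0.953 between lines, and no array was set aside. The epithelial keratin genes KRT8 (9.81 ± 0.09 in PC-3/Mc against 8.78 ± 0.14 in PC-3/S) and KRT18 (12.48 ± 0.13 in PC-3/Mc against 11.32 ± 0.01 in PC-3/S; SD) were bright in both lines, while the prostate differentiation gene KLK3, which PC-3 is known to lack, read 6.39 ± 0.33 in PC-3/Mc against 6.73 ± 0.12 in PC-3/S, above the CTNNA1 floor. A reading somewhat over that floor is therefore not by itself evidence of a transcript. KLK3 ran from 6.07 to 6.84 over all arrays. SOX12 in PC-3/S lay within that range on its brightest probe set (6.50 to 6.83), and SOX13 just over it (6.88 to 7.01). SOX9 in PC-3/Mc started just over the KLK3 range on its own brightest probe set (6.86 to 7.21). Dimmer probe sets of SOX7 and SOX9 also had readings in that range. EPCAM, an epithelial gene read beside the keratins, was bright in PC-3/Mc alone, at 11.88 ± 0.19 against 6.44 ± 0.22 in PC-3/S (SD).

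SOX4 and SOX9 were lower in PC-3/Mc and SOX7 was higher, each by about 2-fold on the called probe sets. SOX4 was called on 4 of its 6 probe sets, and SOX9 and SOX7 each on 2 of 2. SOX12 was called in opposite directions on its 2 probe sets. SOX5, SOX6, SOX8, SOX11, SOX13 and SOX15 had no called probe set. By probe set, 3 of 33 were higher, 7 lower and 23 not called, so that 30.3% were called against 35.9% of all 54613 probe sets tested, and the median difference was -0.10 against -0.01 over all. The share of SOX probe sets called was thus near the background of this comparison. Of the 14 SOX probe sets over the floor on all 6 arrays, 9 were called (64.3%, against 59.9% of all probe sets that pass the same level). Of the 16 at or under the floor on every array, 1 was called (6.25%, against 10.6% of all probe sets so placed). For 11 SOX probe sets the ranges of the lines lay apart (33.3%), against 45.3% of all probe sets.

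**Figure D1:**
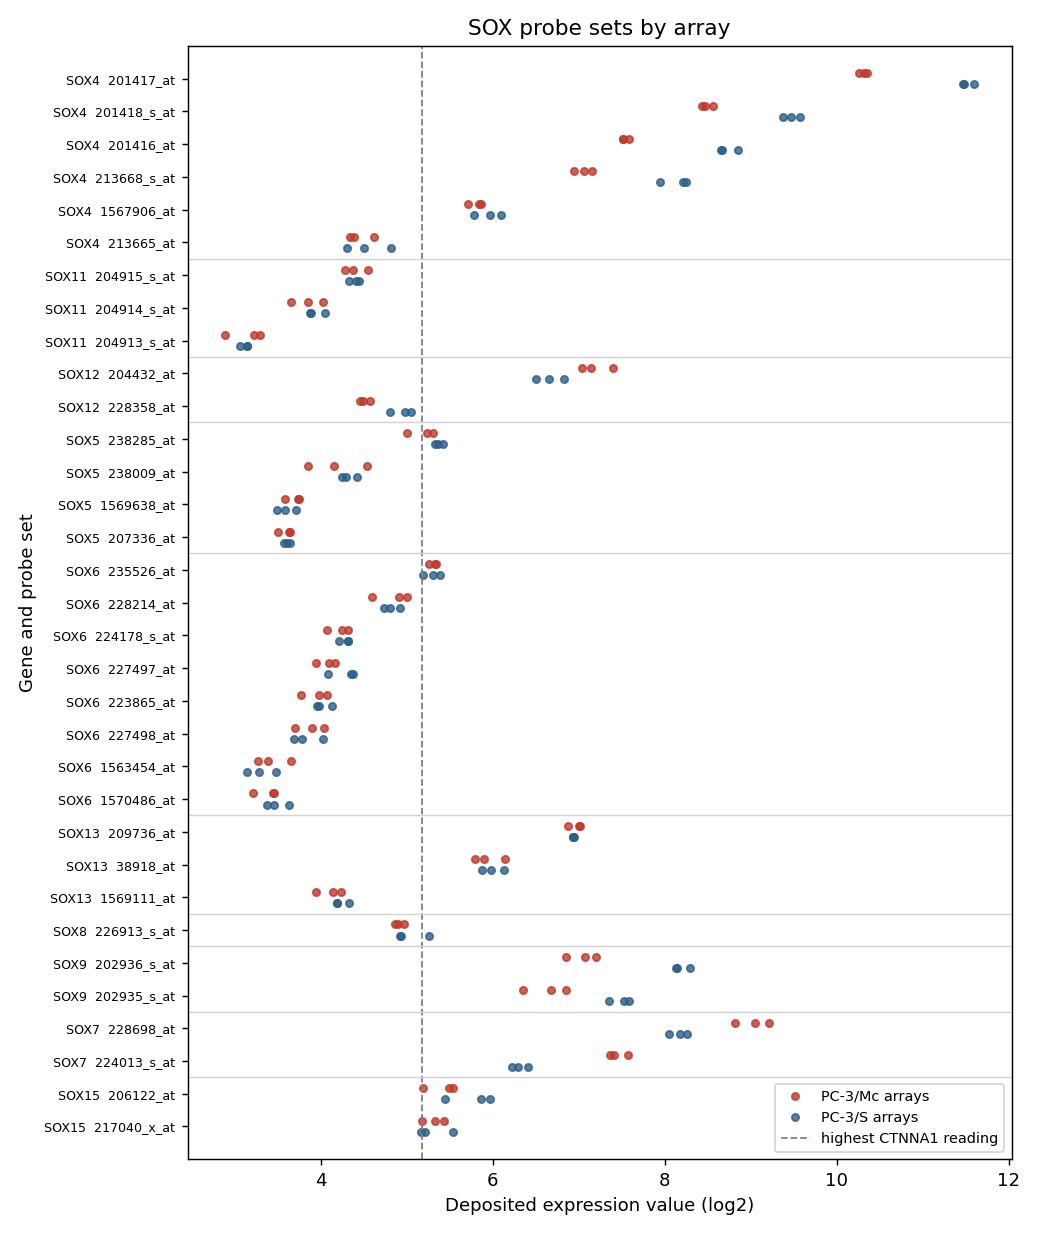
Deposited log2 value of every SOX probe set on each array, with PC-3/Mc points drawn above PC-3/S points in each row and genes ordered by SOX group. The dashed line is the highest CTNNA1 reading (5.18); the PC-3/Mc and PC-3/S points lie apart for 4 SOX4, 2 SOX9, 2 SOX7, 2 SOX12 and 1 SOX5 probe sets, and all SOX11 points lie left of the line.

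**Figure D2:**
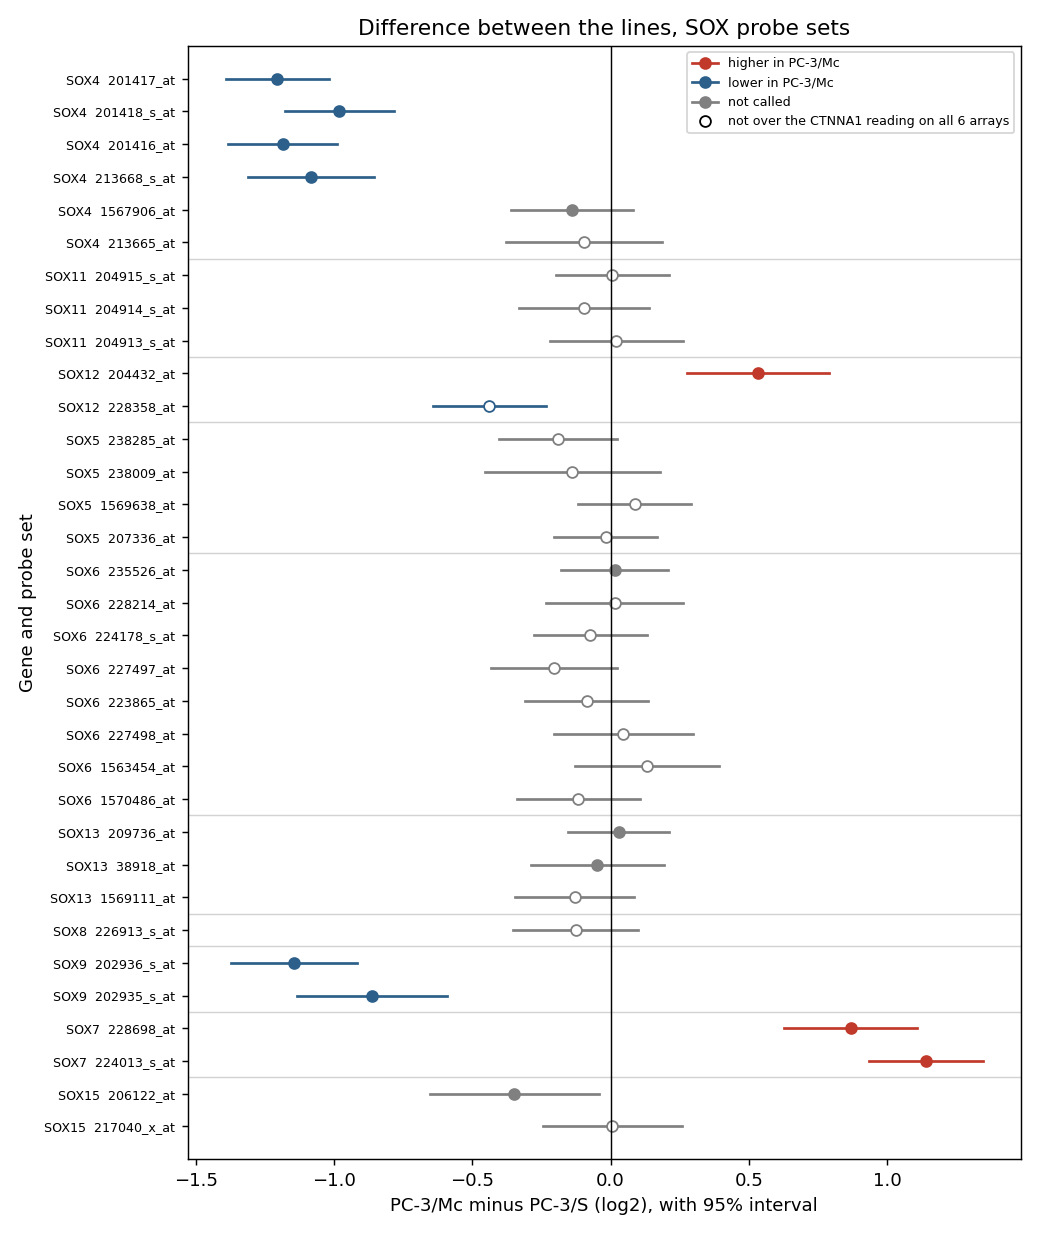
Difference between the lines (PC-3/Mc minus PC-3/S, log2) for every SOX probe set, with the 95% interval of the limma fit. Red marks the 3 probe sets higher and blue the 7 lower in PC-3/Mc, and grey those without a call; open circles were not over the CTNNA1 reading on all 6 arrays.

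SOX4 (chromosome 6), a single-exon gene whose product supports the survival of progenitor cells in many tissues, read 10.31, 10.35 and 10.26 on its brightest probe set, 201417_at, in PC-3/Mc replicates 1 to 3, against 11.47, 11.48 and 11.60 in PC-3/S. Every PC-3/Mc array lay below every PC-3/S array, and the spread within a line was small (SD 0.05 in PC-3/Mc against 0.07 in PC-3/S). The difference was -1.20 ± 0.09, or 2.31-fold lower in PC-3/Mc (adjusted p = 3.07e-07), with a 95% interval of -1.39 to -1.02.

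A further 3 SOX4 probe sets gave differences of similar size. Probe set 201416_at read 7.51, 7.52 and 7.59 in PC-3/Mc against 8.85, 8.67 and 8.65 in PC-3/S, a difference of -1.19 ± 0.09 (adjusted p = 5.57e-07). Probe set 213668_s_at differed by -1.08 ± 0.10 (adjusted p = 3.96e-06) and 201418_s_at by -0.98 ± 0.09 (adjusted p = 2.89e-06). On each of these the lines did not overlap. Set against 201417_at array by array, none of the 3 gave a significantly different result, with differences from it between 0.02 and 0.22 (adjusted p = 0.162 to 0.921).

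The last 2 SOX4 probe sets had no call. Probe set 1567906_at read 5.72, 5.87 and 5.85 in PC-3/Mc against 5.97, 6.10 and 5.78 in PC-3/S, over the floor and overlapping, with a difference of -0.14 ± 0.10 (adjusted p = 0.328; 95% interval -0.36 to 0.08). Its result differed from that of 201417_at by 1.06 ± 0.13 (adjusted p = 1.17e-04). Probe set 213665_at stayed under the floor on all arrays, between 4.31 and 4.82, and its result differed from that of 201417_at by 1.11 ± 0.17 (adjusted p = 4.17e-04). The annotation used here does not give where on the transcript each probe set lies. Averaging all 6 SOX4 probe sets gave a smaller difference, -0.78, which kept its call.

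SOX11, the SOXC gene of developing neurons and a marker of mantle cell lymphoma, was at or under the floor throughout. Its brightest probe set, 204915_s_at, read 4.55, 4.28 and 4.38 in PC-3/Mc against 4.44, 4.41 and 4.33 in PC-3/S. The arrays overlapped and the difference was 0.01 ± 0.09 (adjusted p = 0.969; 95% interval -0.20 to 0.21). The other SOX11 probe sets differed by -0.10 (204914_s_at) and 0.02 (204913_s_at) at readings no higher than 4.05. No transcript of SOX11 was therefore detectable above the floor in either line.

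SOX12 (chromosome 20), which overlaps in function with SOX4 and SOX11 in the mouse embryo, read 7.40, 7.14 and 7.04 on probe set 204432_at in PC-3/Mc, against 6.65, 6.50 and 6.83 in PC-3/S. All PC-3/Mc arrays lay above all PC-3/S arrays, and the difference was 0.53 ± 0.12, or 1.45-fold higher (adjusted p = 0.00307). Its other probe set, 228358_at, ran the other way at readings under the floor, 4.49, 4.57 and 4.46 in PC-3/Mc against 4.98, 5.05 and 4.81 in PC-3/S, a difference of -0.44 ± 0.09 (adjusted p = 0.00246). The 2 results differed from each other by -0.97 ± 0.16 (adjusted p = 7.91e-04). With both probe sets averaged, the SOX12 difference was 0.05 and not called (adjusted p = 0.643), so a direction for this gene rests on preferring the brighter probe set.

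In SOXD, whose members carry no transactivation domain and pair through a coiled coil, no probe set was called. SOX5 and SOX6, which assist SOX9 on cartilage genes, sat at the floor. For SOX5, probe set 238285_at read 5.01, 5.23 and 5.31 in PC-3/Mc against 5.33, 5.37 and 5.42 in PC-3/S; the lines did not overlap, yet the difference of -0.19 ± 0.10 missed the threshold (adjusted p = 0.159; 95% interval -0.40 to 0.02). The other 3 SOX5 probe sets stayed under the floor, with differences of -0.14, 0.09 and -0.02; the first of these, 238009_at, was called without PC-3/Mc replicate 3 (-0.32, adjusted p = 0.0462).

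SOX6 had 8 probe sets, the most of any member, and none separated the lines. The brightest, 235526_at, read 5.34, 5.33 and 5.26 in PC-3/Mc against 5.31, 5.39 and 5.19 in PC-3/S, a difference of 0.01 ± 0.09 (adjusted p = 0.927; 95% interval -0.18 to 0.21). The others lay under the floor on every array, with differences between -0.21 and 0.13 and adjusted p-values of 0.157 to 0.942.

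SOX13, a SOXD gene known from gamma-delta T cells of the mouse and as an islet autoantigen, was the one SOXD member well over the floor. Its brightest probe set nevertheless lay just over the KLK3 readings. Probe set 209736_at read 7.01, 6.88 and 7.01 in PC-3/Mc against 6.93, 6.93 and 6.95 in PC-3/S. The arrays overlapped, and the difference was 0.03 ± 0.08 (adjusted p = 0.840). Its 95% interval ran from -0.16 to 0.21, short of the differences seen for SOX4, SOX9 and SOX7. Probe set 38918_at, over the floor as well, differed by -0.05 ± 0.11 (adjusted p = 0.789), and 1569111_at, under it, by -0.13 ± 0.10 (adjusted p = 0.356).

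In SOXE, SOX9 (chromosome 17) was lower in PC-3/Mc. SOX9 directs cartilage and Sertoli cell fate and marks progenitor compartments of several epithelia. Probe set 202936_s_at read 7.21, 7.07 and 6.86 in PC-3/Mc, against 8.29, 8.13 and 8.14 in PC-3/S. No array of one line reached the other, and the difference was -1.14 ± 0.10, or 2.21-fold lower (adjusted p = 2.72e-06). Probe set 202935_s_at read 6.85, 6.67 and 6.36 in PC-3/Mc against 7.53, 7.36 and 7.59 in PC-3/S, a difference of -0.86 ± 0.12 (adjusted p = 1.24e-04). On both probe sets PC-3/Mc replicate 3 was the lowest array. The 2 results were 0.28 ± 0.11 apart, which missed the threshold (adjusted p = 0.0759).

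SOX8, the other SOXE gene measured as a member, had a single probe set near the floor. It read 4.87, 4.97 and 4.90 in PC-3/Mc against 5.26, 4.94 and 4.92 in PC-3/S, with PC-3/S replicate 1 alone over the floor. The difference was -0.13 ± 0.10 (adjusted p = 0.399; 95% interval -0.35 to 0.10).

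SOX7 (chromosome 8), the SOXF gene of early endoderm and endothelium and a known antagonist of beta-catenin signalling, was higher in PC-3/Mc. Probe set 228698_at read 9.05, 9.22 and 8.82 in PC-3/Mc, against 8.18, 8.05 and 8.25 in PC-3/S, a difference of 0.87 ± 0.11, or 1.83-fold (adjusted p = 4.54e-05). Probe set 224013_s_at read 7.57, 7.41 and 7.37 in PC-3/Mc against 6.22, 6.29 and 6.41 in PC-3/S, a difference of 1.14 ± 0.09, or 2.20-fold (adjusted p = 1.16e-06). The lines were apart on both, and the 2 results did not differ past the threshold (0.27 ± 0.13, adjusted p = 0.128). That last difference was called without PC-3/Mc replicate 2 (0.38, adjusted p = 0.0402).

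SOX15, the only SOXG gene, is known from muscle progenitors of the mouse. Its probe set 206122_at read 5.54, 5.19 and 5.50 in PC-3/Mc against 5.87, 5.97 and 5.44 in PC-3/S. PC-3/S replicate 3 lay within the PC-3/Mc range, and the difference of -0.35 ± 0.14 was not called (adjusted p = 0.0743; 95% interval -0.65 to -0.04). Without that array it was -0.51 and called (adjusted p = 0.00714). Probe set 217040_x_at, between 5.16 and 5.54 over both lines, differed by 0.01 ± 0.11 (adjusted p = 0.978).

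Of 23 SOX probe sets set against the brightest of their gene, 3 differed from it (13.0%), against 33.5% of 21316 such probe sets on the array. These were the 2 dim SOX4 probe sets and the second one of SOX12, all in called genes. Most of the 23 belonged to genes without a call and largely read near the floor, where little departure can show. The lower share is therefore no measure of closer agreement among SOX probe sets. The 6 genes without a call held 21 probe sets, with differences from -0.35 to 0.13 and 95% intervals that reached no further than -0.65 and 0.39.

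**Figure D3:**
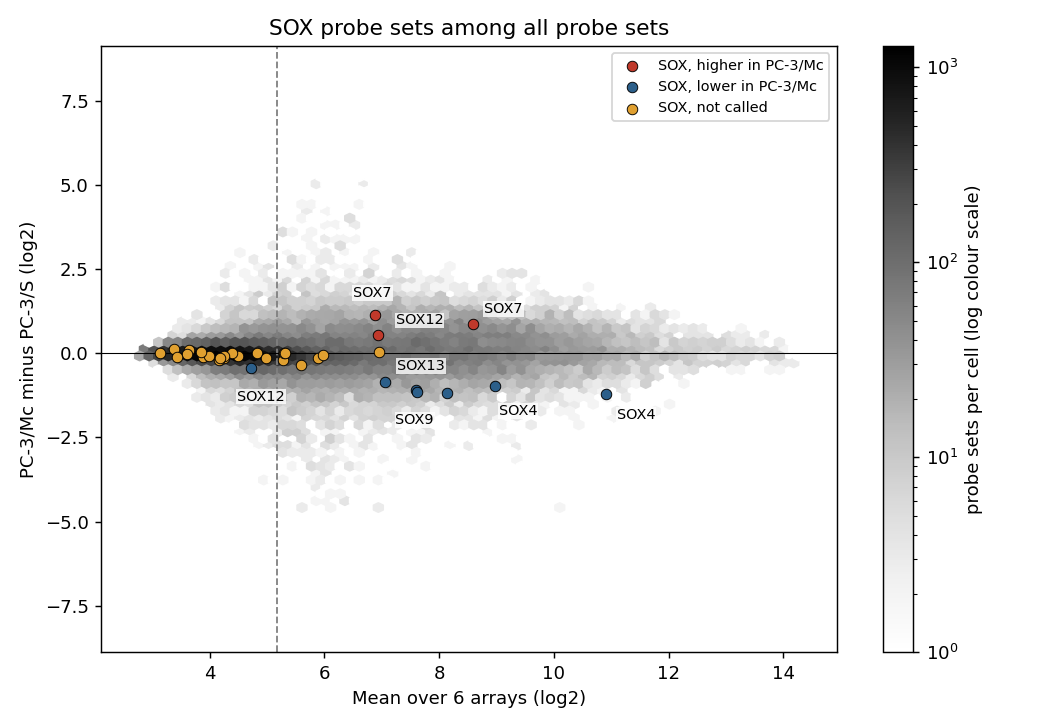
Difference between the lines (PC-3/Mc minus PC-3/S) against the mean over the 6 arrays, both log2, with SOX probe sets as coloured points over the density of all probe sets in grey; the dashed line is the highest CTNNA1 reading (5.18). The called SOX points lie between -1.20 and 1.14, within the grey cloud, and most uncalled ones lie left of or near the line.

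The measured genes next to the called members in RefSeq order were read on 1 probe set each, the one with the highest mean, in a fit over 19775 genes in which 45.9% were called, 23.2% higher and 22.7% lower. In that fit, 4 of the 10 SOX genes were called, SOX7 and SOX12 higher and SOX4 and SOX9 lower. Beside SOX7 lies PINX1, which encodes a telomerase inhibitor, at 7.70 ± 0.17 in PC-3/Mc against 6.41 ± 0.03 in PC-3/S (SD), a difference of 1.29 ± 0.09 (adjusted p = 9.00e-07). C8orf74, on the other side of SOX7, read 5.45 in PC-3/Mc against 5.30 in PC-3/S without a call (adjusted p = 0.306), although it was called without PC-3/S replicate 3 (0.27, adjusted p = 0.0346). SOX4 lies between CDKAL1, a tRNA-modifying enzyme gene that was higher in PC-3/Mc (0.74 ± 0.11, adjusted p = 2.23e-04; 0.31 with its probe sets averaged), and the long non-coding RNA gene CASC15, which was dim and lower (-0.40 ± 0.08, adjusted p = 0.00228). The CASC15 call was lost when its probe sets were averaged (-0.11, adjusted p = 0.245) or without _x_at and _s_at designs, which can match several transcripts (-0.22, adjusted p = 0.0804). NRSN2, a neuronal membrane protein gene beside SOX12, was lower, the direction of the dim SOX12 probe set and not of the bright one, at 5.71 ± 0.11 in PC-3/Mc against 6.79 ± 0.13 in PC-3/S (-1.09 ± 0.10, adjusted p = 3.63e-06). SOX9-AS1, transcribed beside SOX9, was lower by -0.87 ± 0.08 (adjusted p = 6.92e-06) but read under the floor in both lines, and averaging its probe sets gave -0.41. The neighbours on the other side, NRSN2-AS1 of SOX12 (0.15, adjusted p = 0.225) and LINC02003 of SOX9 (0.01, adjusted p = 0.958), were under the floor and not called. Genes beside members without a call gave calls as well, among them ETNK2 beside SOX13 (-1.17) and SENP3 beside SOX15 (0.41), named after their values were seen. Those beside SOX5 and SOX11 were not called.

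The other SOX genes of the family were dim. In the fit by gene, 45.9% of all genes were called, 23.2% higher and 22.7% lower. Of 9 other SOX genes measured, 3 were higher, 1 lower and 5 not called, with a median of 0.02. In both line means, 6 of them stayed at or under the floor. The 4 called, named after their values were seen, were SOX2 (at least 1.45-fold higher, measured difference 0.66), SOX14 (0.22), SOX21 (0.26) and SOX30 (-0.48). The SOX14 and SOX21 calls did not hold with the replicate block (adjusted p = 0.0790 and 0.112) or in most fits that left out an array. SOX10, the melanocyte and Schwann cell factor of SOXE, read 5.91 in PC-3/Mc against 5.94 in PC-3/S without a call (adjusted p = 0.839).

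Cartilage matrix genes that SOX9, SOX5 and SOX6 are known to drive in chondrocytes were mostly dim. Of 13 measured, 1 was higher, 2 were lower and 10 were not called, where 45.9% of all genes were called, and they had a median of 0.03 against -0.03 over all genes; 8 lay at or under the floor in both lines. The defining pair COL2A1 (4.15 in PC-3/Mc against 4.33 in PC-3/S) and ACAN (5.48 in PC-3/Mc against 5.28 in PC-3/S) had adjusted p-values of 0.202 and 0.351. HAPLN1, the link protein that ties aggrecan to hyaluronan, was the called gene above the floor. It read 9.51, 9.38 and 9.34 in PC-3/Mc against 6.43, 6.31 and 6.36 in PC-3/S, 8.24-fold higher (3.04 ± 0.08, adjusted p = 4.37e-10), the direction opposite to that of SOX9. The PC-3/S readings of HAPLN1 lay within the KLK3 range, so the size of this fold is uncertain. The lower ones, named after their values were seen, were MATN3 (-0.91) and COL9A2 (-0.40), both with line means at or under the floor and 1 PC-3/S array over it.

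Genes reported as targets of SOX4 or SOX11 went both ways, with 3 of 8 higher, 2 lower and 3 not called, and a median of 0.07. Over all genes, 45.9% were called, 23.2% higher and 22.7% lower. TUBB3, the neuronal beta-tubulin gene, was at 11.59 ± 0.08 in PC-3/Mc against 10.50 ± 0.04 in PC-3/S (SD), a difference of 1.09 ± 0.08 (adjusted p = 7.70e-07). EZH2, the histone H3 methyltransferase gene, was higher by 0.85 ± 0.11 and DICER1, the miRNA-processing enzyme gene, by 0.64 (0.42 with its probe sets averaged). SEMA3C, a secreted semaphorin, was lower, at 6.96 ± 0.17 in PC-3/Mc against 8.80 ± 0.15 in PC-3/S (-1.84 ± 0.11, adjusted p = 1.81e-07). TEAD2 was lower by -0.45, a call that was lost with its probe sets averaged (-0.13, adjusted p = 0.151).

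Partners and regulators of SOX proteins were higher for 10 of 13 measured, where 23.2% of all genes were higher and 22.7% lower. None was lower and 3 were not called, with a median of 0.49 against -0.03 over all genes. Of the 13, 12 had their higher line mean over the floor, and all of these but POU3F2 were over it on every array. Many were bright, and calls are commoner at such levels. Of probe sets over the floor on all arrays, 59.9% were called in either direction. SDCBP, whose product syntenin stabilises SOX4 protein, was at 10.87 ± 0.13 in PC-3/Mc against 10.15 ± 0.10 in PC-3/S (0.72 ± 0.09, adjusted p = 7.71e-05). The corepressor gene CTBP2 was higher by 0.72 ± 0.09, the deacetylase gene HDAC1 by 0.67 and the paired-box factor PAX6 by 0.65. FBXW7, a ubiquitin ligase adaptor that targets SOX9 for degradation (0.44, adjusted p = 8.54e-04), and CTNNB1, which encodes beta-catenin (0.57, adjusted p = 0.00132), were higher too, and EP300 (-0.01), POU3F1 (-0.05) and PRKACA (-0.12) were the uncalled ones. The neural factor gene POU3F2, below the median level, was under the floor on all PC-3/S arrays and at least 1.25-fold higher (measured difference 0.96, adjusted p = 5.86e-06). These 6 genes were named after their values were seen.

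Other genes with an HMG box gave 10 higher, 5 lower and 7 not called of 22 measured, with a median of 0.14. Over all genes, 45.9% were called, 23.2% higher and 22.7% lower. All 22 had their higher line mean over the floor, but TCF7L1, TOX, TOX2 and TOX3 had the other line mean under it. Of probe sets over the floor on all arrays, a stricter set, 59.9% were called. TOX2 read 7.85, 7.62 and 7.69 in PC-3/Mc against 3.81, 3.84 and 3.99 in PC-3/S, so that PC-3/S lay under the floor and the fold is a lower bound, at least 5.84-fold higher against the floor (adjusted p = 1.73e-10). TOX, its relative known from T cells, was at least 1.92-fold higher (measured difference 1.38, or 0.69 with its probe sets averaged). Of the HMG-box effectors of WNT signalling, TCF7L2 was 2.57-fold higher, TCF7L1 at least 2.82-fold lower, and LEF1 slightly lower (-0.20, adjusted p = 0.0446). The chromatin proteins HMGB1 (0.62), HMGB2 (0.55) and HMGB3 (0.86) were all higher; HMGB1, HMGB2 and LEF1 were named after their values were seen. HMGXB3 was lower, at 8.37 ± 0.14 in PC-3/Mc against 8.78 ± 0.08 in PC-3/S (-0.41 ± 0.09, adjusted p = 0.00352), and kept its call under every alternative run. HBP1 (-0.54) and HMG20B (-0.38) were lower too, though neither of these calls held without _x_at and _s_at designs (adjusted p = 0.404 and 0.216), and the HBP1 call was lost with its probe sets averaged (-0.16, adjusted p = 0.101).

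**Figure D4:**
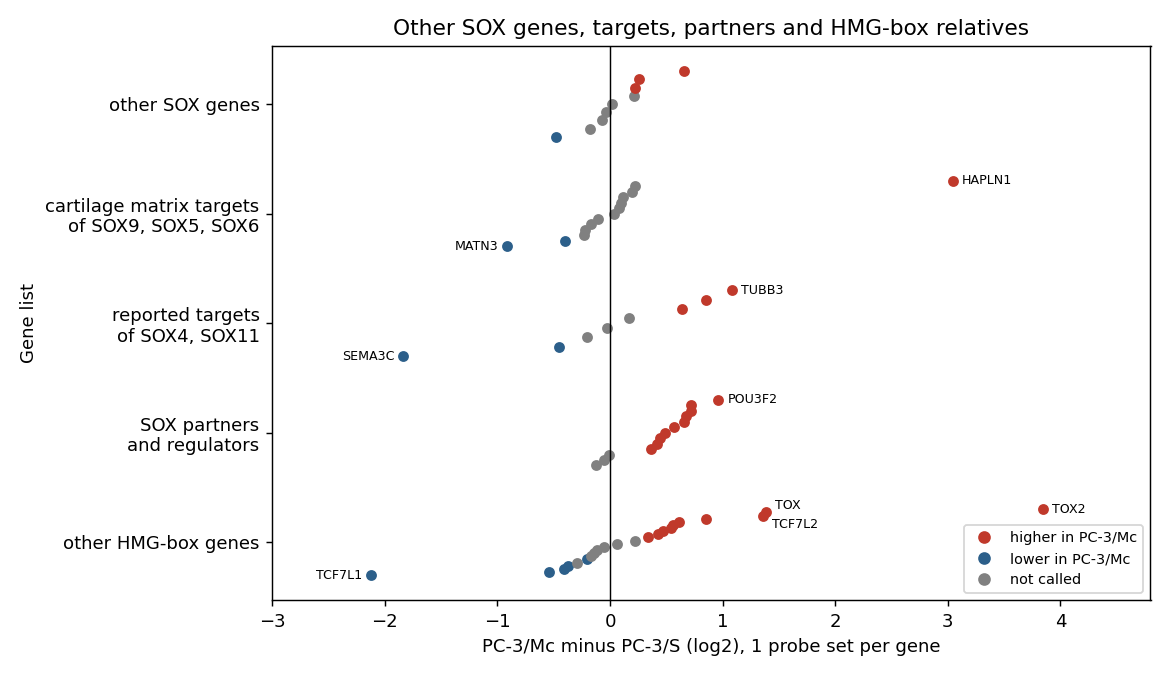
Difference between the lines (PC-3/Mc minus PC-3/S, log2; 1 probe set per gene) for each measured gene of 5 lists, red where higher in PC-3/Mc, blue where lower and grey where not called; genes past 0.9 in either direction are named. Partners and regulators lie mostly right of 0 with a median of 0.49, while the cartilage list is centred near 0 with HAPLN1 alone at 3.04.

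Markers of other cell types were read beside these results, since in bulk RNA fewer cells of a type and less RNA per cell cannot be told apart. Endothelial genes, where SOX7 is at home, gave 1 of 7 higher (PECAM1, 7.18 in PC-3/Mc against 6.58 in PC-3/S), 1 lower (KDR, 4.06 in PC-3/Mc against 6.23 in PC-3/S) and 5 not called, with summed linear signals of 286 to 307 in PC-3/Mc against 307 to 327 in PC-3/S. The endothelial cadherin gene CDH5, the receptor genes TEK and TIE1, and VWF had means at or under the floor in both lines. CLDN5, also without a call, was over the floor on all arrays, with means of 5.53 in PC-3/Mc against 5.77 in PC-3/S. Stromal genes gave 1 of 6 higher, 3 lower and 2 not called, with sums of 291 to 340 in PC-3/Mc against 404 to 424 in PC-3/S. The lower ones were COL3A1 (4.28 in PC-3/Mc against 6.21 in PC-3/S), COL1A1 (7.39 against 7.67) and DCN (4.89 against 5.33). PDGFRB was the higher one (5.08 in PC-3/Mc against 4.73 in PC-3/S), with both means under the floor. Melanocyte and Schwann cell genes gave 1 of 6 higher (MITF, 9.07 in PC-3/Mc against 8.35 in PC-3/S) and 5 not called, with a median of -0.09. Their sums were 609 to 722 in PC-3/Mc against 438 to 460 in PC-3/S, to which MITF, by far the brightest, gave the most. PMEL read 5.41 in PC-3/Mc against 5.27 in PC-3/S, and TYR, MLANA, S100B and CDH19 stayed under the floor. All 5 measured leukocyte genes were at or under the floor. In the same fit by gene, 45.9% of all genes were called. The part of these markers in the SOX differences was not tested.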

How the data were processed

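Total RNA of 2 PC-3 sublines was measured on 6 one-colour arrays, grouped by the samples' titles. The authors' deposited table holds log2 expression values for 54675 probe sets; for software, background correction and normalization, no record is given in the sources used here, and the log2 scale was settled from the values, which ran from 2.59 to 14.45. If the arrays were scaled to each other, a difference is relative to the remaining features. Values were tested as deposited with limma 3.58.1 (R 4.3.3), by moderated two-sided tests from lmFit and eBayes, over 54613 probe sets, leaving out 62 control probe sets. A second fit used the brightest of each gene's probe sets (19775 genes), and another the difference of each other probe set from the brightest. The median SE was 0.098, and the number of arrays limits the precision. Genes were named where the platform annotation gives 1 symbol (41091 probe sets); 3 of 68 list genes and 6 of 35 markers had no such probe set and are not analysed here.

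The members, lists and tests were chosen with earlier results of these data known. Every member probe set is given; of each list, up to 4 called genes per direction with the largest difference and a mean in the higher line at or above 5.98, the median of all genes. Same-numbered arrays of the lines showed no positive correlation of their deviations (-0.01, -0.21 and -0.31). Differently numbered arrays were not set beside them, so these values cannot settle whether the replicate numbers pair the arrays. The main fits used no pairing.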

Additional observations from a re-analysis of the deposited data

How the results depend on the processing

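Over 100 results and 1135 recomputed values, no called result changed direction. Values without a call under either setting changed sign 50 times, all small. Among 473 recomputed values of SOX genes and probe sets, 1 call was lost and 4 were gained. The lost one was SOX12 with its probe sets averaged (0.047). Those gained were SOX15 with an intensity trend in limma (-0.35, adjusted p = 0.0465), SOX15 without PC-3/S replicate 3 in the fits by gene and by probe set, and the dim SOX5 probe set 238009_at without PC-3/Mc replicate 3. Leaving out each array in turn gave between -0.51 and -0.24 for SOX15 in the fit by gene, and 10 to 11 called SOX probe sets. Without features below the 40th percentile of mean level, fewer probe sets were set against the brightest of their gene, and 4542 differed from it, against 7133. With the replicate block, 10 SOX probe sets were called and 17443 over all, against 19582; the block ended only the calls of SOX14 and SOX21 among the results recomputed. Quantile normalization and median centring moved the median difference of all probe sets to 0.00 and 0.04, and changed no SOX call. Without detection calls, readings near the CTNNA1 floor limit what can be said of SOX5, SOX6, SOX8, SOX11 and SOX15. Readings within or just over the KLK3 range likewise limit what can be said of SOX12 in PC-3/S and of SOX13. The same limit holds for the size of the SOX9 difference, through its PC-3/Mc readings. It also holds for the dimmer SOX7 probe set, through its PC-3/S readings.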

Other observations

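SOX21-AS1, a non-coding gene beside SOX21, read 6.68, 6.62 and 6.19 in PC-3/Mc, against 4.06, 4.08 and 4.14 in PC-3/S. PC-3/S lay under the CTNNA1 floor, and the lower bound of the fold was 2.50 (measured difference 2.40 ± 0.12, adjusted p = 1.87e-08 by limma over all probe sets). SOX21 itself was under the floor on all arrays, between 4.93 and 5.16 in PC-3/Mc and 4.62 and 4.87 in PC-3/S. The 4 probe sets of SOX2 gave unequal differences of 0.66, 0.22, 0.03 and 1.86; the last, 228038_at, read 5.06, 5.40 and 5.21 in PC-3/Mc against 3.23, 3.39 and 3.45 in PC-3/S, astride the floor.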
